A study of Mus musculus with 9 samples.

Results

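The chemokine ligand genes followed here are Ccl2, Ccl3, Ccl4, Ccl5, Ccl6, Ccl9, Cxcl2, Cxcl10, Cxcl16 and Pf4, which monocytes and their neighbours in blood are known to transcribe. They were taken by name and make up 10 of the 23234 gene symbols measured. All 10 passed the filter on low values, since each averaged 1 FPKM or more (fragments per kilobase of transcript and per unit of mapped fragments). Chemokines are small secreted proteins that bind G protein-coupled receptors and draw leukocytes along a gradient. The CC ligands mostly recruit monocytes, T cells and NK cells, while CXC ligands with an ELR motif, such as Cxcl2, recruit neutrophils and those without it, such as Cxcl10, recruit activated lymphocytes. In blood monocytes, some of these genes are transcribed steadily and others are held ready for rapid induction by adhesion, microbial products, immune complexes or interferon.

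RNA sequencing covered 9 libraries of sorted CD11b+ blood monocytes from C57BL/6 mice aged 8 months, each made from about 100000 cells. Gr-1+CD11b+ cells gave 4 libraries, labelled null (2), CEBPaCre (1) and CD19Cre (1), and Gr-1-CD11b+ cells gave 5, labelled null, CEBPaCre, CD11cCre, CD19Cre and floxed (1 each). The null genotype is Fcgr2-/-.Yaa, the 3 Cre genotypes are CEBPaCre, CD11cCre or CD19Cre with Fcgr2 fl/fl.Yaa, and floxed is Fcgr2 fl/fl.Yaa without Cre. Fcgr2 (Fcgr2b in the files) encodes CD32, the inhibitory IgG receptor, and Yaa, a Y chromosome with an added X segment that holds Tlr7, was shared by every library. The CEBPaCre driver acts in the myeloid lineage, CD11cCre in dendritic cells and part of the monocytes, and CD19Cre in B cells. Mice without Yaa were not analysed here. Whether each library stands for its own animal is not given, and every p therefore rests on the spread between libraries, which may be technical. Values per library follow 1 order: null replicate 1, null replicate 2, CEBPaCre and CD19Cre for Gr-1+, then null, CEBPaCre, CD11cCre, CD19Cre and floxed for Gr-1-.

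The sort matched its labels: 9 of 10 classical monocyte markers were higher in Gr-1+, with a summed level of 29511 to 36203 FPKM against 6499 to 14644 FPKM in Gr-1-, and 11 of 12 nonclassical markers were lower, at 560.4 to 811 against 2665 to 4886 FPKM. Fcgr2b did not follow the genotypes, with 105.9 to 200.7 FPKM in the 3 null libraries against 74.9 FPKM in the floxed one, and a genotype name below means the label of a library, not a shown loss of the gene. Depth in reads is unknown from FPKM, and depth relative to the floxed library was estimated from the lowest FPKM steps. The estimates ran from 0.7 in null Gr-1+ replicate 1 to 2.65 in CD19Cre Gr-1-. Genes listed at 0 did not follow this order. They numbered 9482 in null Gr-1+ replicate 1, 10140 in CD19Cre Gr-1+, 8827 in CD19Cre Gr-1- and 5246 in the floxed library. Both CD19Cre libraries stood apart, with 1.85% and 2.12% of their summed FPKM in genes of ribosomal proteins against 3.44% to 7.29% in the other 7.

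Both chemokine families sit in clusters. In GRCm38, with gene spans from GENCODE, Ccl5 (chr11:83525778-83530518), Ccl9 (chr11:83572919-83578636), Ccl6 (chr11:83587882-83593087) and Ccl3 (chr11:83647844-83649355) follow each other on the - strand, with Ccl4 (chr11:83662584-83664683) next to them on the + strand. Ccl2 (chr11:82035571-82037453, + strand) and Cxcl16 (chr11:70453983-70459984, - strand) lie elsewhere on that chromosome. Pf4 (chr5:90772435-90773383), Cxcl2 (chr5:90903871-90905938), both on the + strand, and Cxcl10 (chr5:92346638-92348889, - strand) share chromosome 5. Every gene is protein coding, and the deposited value covers the gene as a whole.

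Promoter sequence was available for 6 of the 10 genes in RefSeq's GRCm38.p6 annotation (Ccl3, Ccl6, Ccl9, Cxcl2, Cxcl10 and Pf4). The 250 bases before the start are shown for Cxcl2 (chr5:90903649-90903898, + strand) and Ccl3 (chr11:83649379-83649628, - strand), which moved together between libraries, for the abundant neighbours Ccl9 (chr11:83578637-83578886, - strand) and Ccl6 (chr11:83593088-83593337, - strand), and for Cxcl10 (chr5:92348890-92349139, - strand). They are written 5′ to 3′ on the gene's strand. Capitals mark matches, searched on both strands, to the NF-kB site consensus (kappaB), the interferon-stimulated response element (ISRE) or a loose AP-1 pattern (TGANTCA, any middle base).
Cxcl2: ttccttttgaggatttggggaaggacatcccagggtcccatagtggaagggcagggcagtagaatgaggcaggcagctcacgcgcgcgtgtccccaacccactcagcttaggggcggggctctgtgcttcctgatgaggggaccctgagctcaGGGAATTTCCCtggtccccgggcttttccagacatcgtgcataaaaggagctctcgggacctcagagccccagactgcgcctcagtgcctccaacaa
Ccl3: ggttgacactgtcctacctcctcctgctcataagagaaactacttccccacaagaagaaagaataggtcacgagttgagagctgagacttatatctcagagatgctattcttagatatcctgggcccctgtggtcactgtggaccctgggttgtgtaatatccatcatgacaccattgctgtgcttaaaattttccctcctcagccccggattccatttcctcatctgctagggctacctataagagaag
Ccl9: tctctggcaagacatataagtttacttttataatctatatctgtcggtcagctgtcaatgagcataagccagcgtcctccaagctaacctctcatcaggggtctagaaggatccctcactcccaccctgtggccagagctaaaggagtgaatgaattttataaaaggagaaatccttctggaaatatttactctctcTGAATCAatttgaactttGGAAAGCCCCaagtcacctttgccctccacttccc
Ccl6: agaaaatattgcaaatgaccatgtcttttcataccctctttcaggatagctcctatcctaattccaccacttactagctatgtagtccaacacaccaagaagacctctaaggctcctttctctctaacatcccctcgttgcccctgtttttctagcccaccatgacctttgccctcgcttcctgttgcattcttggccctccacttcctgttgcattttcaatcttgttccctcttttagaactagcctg
Cxcl10: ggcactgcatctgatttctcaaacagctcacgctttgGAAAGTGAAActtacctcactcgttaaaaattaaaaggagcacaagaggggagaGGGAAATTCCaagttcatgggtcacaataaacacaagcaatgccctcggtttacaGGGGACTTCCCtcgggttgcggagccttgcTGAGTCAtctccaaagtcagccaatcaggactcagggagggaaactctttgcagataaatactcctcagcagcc
Cxcl2 held 1 kappaB place, read on both strands, 97 to 87 bases before the start. Cxcl10 held 2 kappaB places, 159 to 150 and 104 to 94 bases before the start, with an ISRE 213 to 204 bases and an AP-1 match 74 to 68 bases before it. Ccl9 held a match to the loose AP-1 pattern 53 to 47 bases and a kappaB match 35 to 26 bases before the start. Its AP-1 match has A as the middle base, where the AP-1 consensus has C or G, and that of Cxcl10 has G. No match was found in the stretches of Ccl3, Ccl6 and Pf4. Among 32851 promoter stretches of that length, 7.25% held a kappaB match, 6.75% an AP-1 match and 2.98% an ISRE match. A match describes the letters only, and no binding was measured. The GENCODE span of Cxcl2 begins inside the last bases of its stretch, upstream of the RefSeq start.

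In level, Ccl6 led in both subsets. Its lowest Gr-1+ library, at 685 FPKM, lay above the highest Gr-1+ library of every other member, which was Ccl9 at 288 FPKM. Its lowest Gr-1- library, at 451 FPKM, likewise lay above 374 FPKM, the highest Ccl5 value. Ccl6 held 54.5% to 82.2% of the members' summed FPKM in Gr-1+ and 42.8% to 76.5% in Gr-1- libraries. By mean, the order after Ccl6 in Gr-1+ was Ccl9, Cxcl2, Ccl3, Ccl2, Ccl4, Cxcl10, Pf4, Cxcl16 and Ccl5, and the ranges of neighbours from Ccl9 downwards overlapped. In Gr-1- the order after Ccl6 was Ccl5, Ccl9, Ccl3, Cxcl2, Ccl4, Cxcl16, Pf4, Ccl2 and Cxcl10, and 2 pairs of neighbours below Ccl5 did not overlap, Ccl9 with Ccl3 and Ccl4 with Cxcl16.

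**Figure D1:**
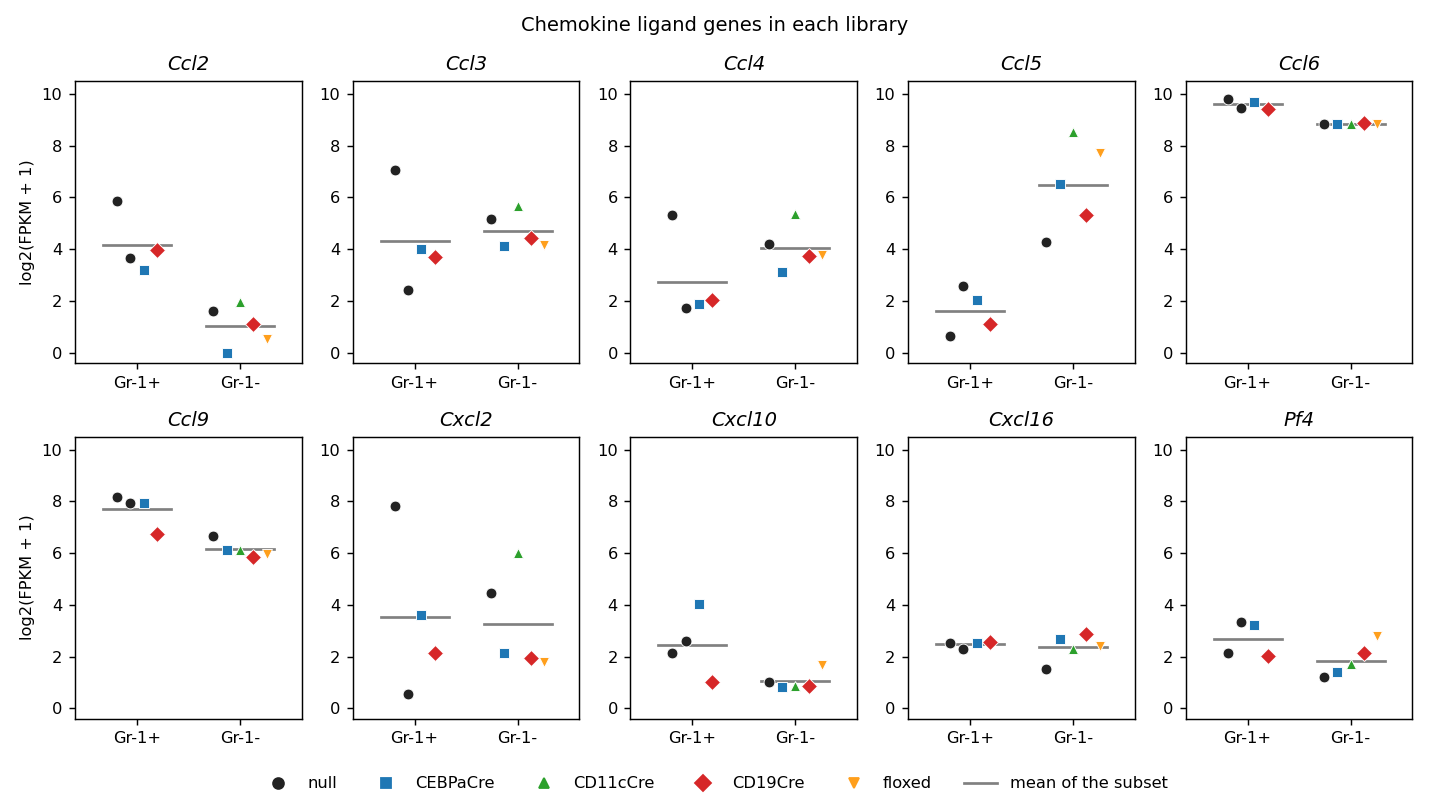
Level of each chemokine ligand gene on the log2(FPKM + 1) scale (y axis) in the 4 Gr-1+ and 5 Gr-1- libraries (x axis), with a symbol for each genotype label and a grey line at the mean of the subset. Ccl2, Ccl6 and Ccl9 lay higher in every Gr-1+ library and Ccl5 in every Gr-1- library, while Ccl3, Ccl4 and Cxcl2 spread widely inside Gr-1+.

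Of the 10 genes, 3 were higher in Gr-1+ (Ccl2, Ccl6 and Ccl9), 1 was lower (Ccl5) and 6 did not pass (limma on log2(FPKM + 1) over all 10436 tested genes, Benjamini-Hochberg adjusted p up to 0.05). The background was 14.8% of tested genes called, 8.84% higher and 5.95% lower. For the same 4 genes the subsets did not overlap, against 16.5% of tested genes, 10.2% with Gr-1+ above and 6.26% with Gr-1+ below. The median log2 difference was 0.51 over the members and 0.09 over all tested genes. Folds are ratios of FPKM + 1, which understates the change of low genes.

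**Figure D2:**
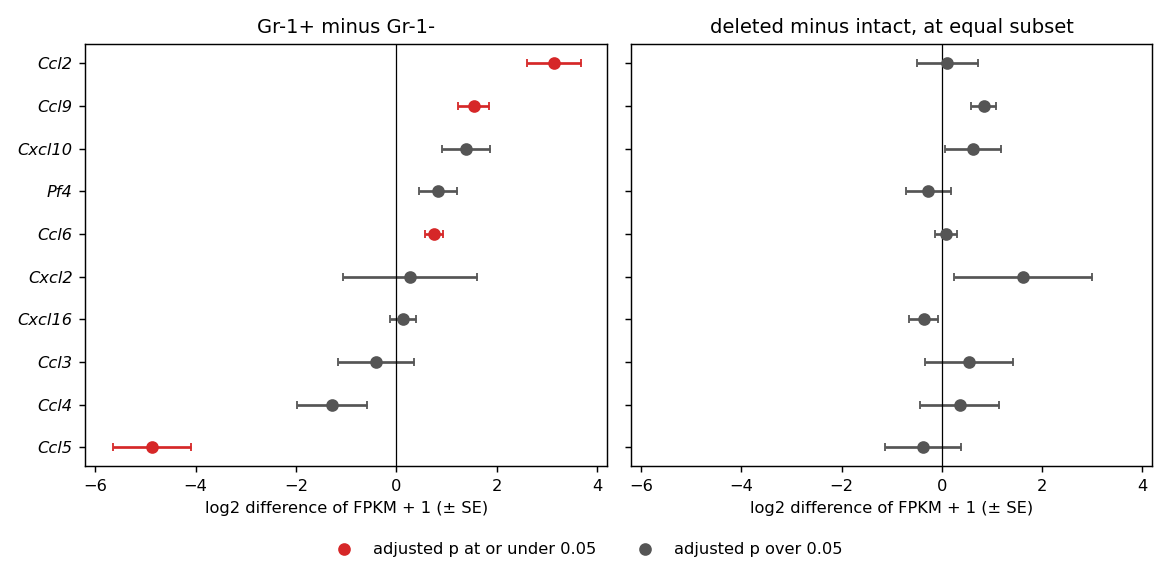
Log2 difference of FPKM + 1 with its SE (x axis) for each gene (y axis), Gr-1+ minus Gr-1- on the left and deleted minus intact at equal subset on the right. Red marks an adjusted p up to 0.05, reached by Ccl2, Ccl9, Ccl6 and Ccl5 on the left and by no gene on the right.

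Ccl6 and Ccl9, neighbouring mouse CC chemokines of myeloid cells that signal through Ccr1, were the members with the highest mean FPKM in Gr-1+. Ccl6 was listed at 905, 700.0, 817 and 685 FPKM in Gr-1+, against 459, 453, 451, 468 and 461 FPKM in Gr-1- libraries. Every Gr-1+ library lay above every Gr-1- library, and the Gr-1- values were nearly equal. Ccl6 averaged 777 ± 104 FPKM in Gr-1+ (SD, n = 4) and 458.5 ± 6.65 FPKM in Gr-1- (n = 5), a log2 difference of 0.75 ± 0.18 (SE) or 1.68-fold (limma adjusted p = 0.0182). The call rested on single libraries: the adjusted p was 0.0637 without null Gr-1+ replicate 1, 0.0617 without CEBPaCre Gr-1+, 0.056 without CEBPaCre Gr-1- and 0.102 over the genotypes with both subsets, where the alternatives spanned 0.00216 to 0.102. Its coefficient of variation in Gr-1- was 1.45%, below that of every other tested gene as deposited, where the median gene had 29.2%. With median-of-ratios size factors, an alternative for this measure chosen after seeing the data, it was 16.6%, 23.1% of tested genes varied less, and the subsets overlapped, with a lowest scaled level of 583 FPKM in Gr-1+ and a highest of 596 FPKM in Gr-1-. Ccl6 overlaps E230016K23Rik on the other strand, which is listed at 1.38 to 8.72 FPKM.

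Ccl9 was listed at 288, 246, 241 and 105 FPKM in Gr-1+, against 101, 69.2, 68.9, 57.1 and 61.2 FPKM in Gr-1- libraries. The lowest Gr-1+ library, labelled CD19Cre, lay only just above the highest Gr-1- library, labelled null. Ccl9 averaged 220 ± 79.6 FPKM in Gr-1+ (SD, n = 4) and 71.5 ± 17.4 FPKM in Gr-1- (n = 5), a log2 difference of 1.54 ± 0.31 or 2.91-fold (limma adjusted p = 0.0057). Its coefficient of variation was 36.2% in Gr-1+, where 63.9% of tested genes varied less, and 24.3% in Gr-1-, where 34.8% did; with size factors it was 41.4% in Gr-1+ and 33.2% in Gr-1-. This call held in all 18 alternatives, with adjusted p from 0.000119 to 0.0466, although with size factors the lowest Gr-1+ value, 89.3, fell below the highest Gr-1- value, 116. Within a genotype label, the log2 difference of Ccl9 between the subsets was 1.78 for CEBPaCre, 0.87 for CD19Cre, and 1.5 and 1.27 for the 2 null Gr-1+ libraries against the null Gr-1- one.

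Ccl2, which draws Ccr2+ monocytes out of bone marrow and into tissue, was the member with the largest rise in Gr-1+. It was listed at 56.7, 11.8, 8.28 and 14.8 FPKM in Gr-1+, against 2.03, 0, 2.85, 1.15 and 0.44 FPKM in Gr-1- libraries. All Gr-1+ libraries lay above all Gr-1- libraries, and null Gr-1+ replicate 1 lay far above the other 3. Ccl2 averaged 22.9 ± 22.7 FPKM in Gr-1+ (SD, n = 4) and 1.30 ± 1.16 FPKM in Gr-1- (n = 5), where 1 library is listed at 0. The log2 difference was 3.15 ± 0.53 or 8.85-fold (limma adjusted p = 0.0023), with 2.59 without null Gr-1+ replicate 1 and 4.34 at a pseudocount of 0.1 FPKM. Ccl2 overlaps the predicted gene Gm17268 on the other strand, and the SMART-Seq v4 cDNA kit does not mark strand, so reads of the 2 cannot be told apart.

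Genes of neutrophils, which carry Ly6G and so bind the Gr-1 antibody too, were also higher in the Gr-1+ libraries. Of 15 listed neutrophil genes, 9 of 12 tested were higher in Gr-1+ and none was lower, with a summed level of 2391, 748, 1030 and 1434 FPKM in Gr-1+ against 71.9 to 156 FPKM in Gr-1- libraries. Cxcr2, the neutrophil receptor on this list, was among the tested genes that did not pass. The part of these transcripts in the Gr-1+ levels of Ccl2, Ccl6 and Ccl9 was not tested, and in bulk samples fewer cells of a type and less RNA per cell cannot be told apart.

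Ccl5, a ligand of Ccr1 and Ccr3 best known from T cells and NK cells, was the member with the largest subset difference and the only one that passed as lower in Gr-1+. It was listed at 0.574, 4.92, 3.11 and 1.18 FPKM in Gr-1+, against 18.4, 90.3, 374, 39.2 and 209 FPKM in Gr-1- libraries. No Gr-1+ library reached a Gr-1- library, and the Gr-1- libraries spread 20.4-fold, from null at the low end to CD11cCre at the high end. Ccl5 averaged 2.45 ± 1.97 FPKM in Gr-1+ (SD, n = 4) and 146 ± 147 FPKM in Gr-1- (n = 5), a log2 difference of -4.88 ± 0.77, so that it was 29.4-fold lower in Gr-1+ (limma adjusted p = 0.00155). The log2 difference was -3.67 with the genotype label as a block and -3.78 over the genotypes with both subsets. Within labels it was -4.47 for CEBPaCre, -4.20 for CD19Cre, and -3.62 and -1.71 for the 2 null Gr-1+ libraries.

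NK cell transcripts moved with Ccl5. Of 13 NK cell genes, 9 of 11 tested were lower in Gr-1+ and none was higher, and their summed level was 1.71 to 4.63 FPKM in Gr-1+ against 25.7, 162.6, 500.7, 132.3 and 196.0 FPKM in Gr-1- libraries. Ncr1, which defines NK cells, was listed at 0 in all 4 Gr-1+ libraries and at 0.809 to 22.8 FPKM in Gr-1-. The Gr-1- libraries labelled null and CD11cCre were lowest and highest for both Ccl5 and the NK genes. T cell genes summed to 1.82 to 3.96 FPKM in Gr-1+ against 4.36 to 21.6 FPKM in Gr-1-, with 1 of 2 tested lower and none higher, and B cell genes to 9.30 to 71.6 against 44.0 to 158 FPKM, with 4 of 5 tested lower and none higher. Dendritic cell genes went both ways (1 higher and 2 lower of 6 tested), 1 of 2 tested eosinophil and basophil genes was lower, and none of 5 erythroid genes passed. The part of other cells in the Ccl5 level was not tested.

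**Figure D3:**
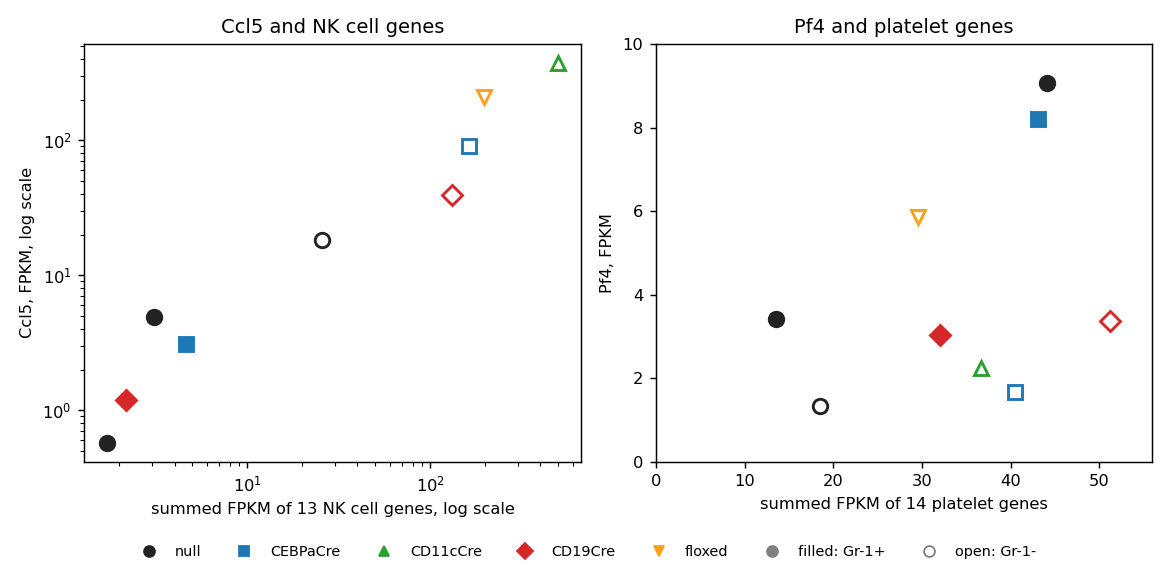
Left, Ccl5 in FPKM (y axis) against the summed FPKM of 13 NK cell genes (x axis), both on log scales; right, Pf4 in FPKM (y axis) against the summed FPKM of 14 platelet genes (x axis), with filled symbols for Gr-1+, open symbols for Gr-1- and a shape and colour for each genotype label. The Gr-1- libraries lie at 25.7 FPKM or more of NK cell genes and 18.4 FPKM or more of Ccl5, and the Gr-1+ libraries at 4.63 and 4.92 FPKM or less.

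Cxcl2, Ccl3 and Ccl4 are rapidly induced ligands, with Cxcl2 a ligand of the neutrophil receptor Cxcr2 and Ccl3 a ligand of Ccr1. None of the 3 passed the test between subsets, and each ranged widely within one. Cxcl2 was listed at 225, 0.457, 11.1 and 3.45 FPKM in Gr-1+, against 21.1, 3.44, 62.2, 2.83 and 2.41 FPKM in Gr-1- libraries. The 2 libraries labelled null Gr-1+ were the highest and the lowest of all 9, a 492-fold range in FPKM. Cxcl2 averaged 60.0 ± 110 FPKM in Gr-1+ (SD, n = 4) and 18.4 ± 25.7 FPKM in Gr-1- (n = 5), a log2 difference of 0.27 ± 1.33 (limma adjusted p = 0.927). Its direction turned with single libraries, to -1.16 without null Gr-1+ replicate 1 and to 1.26 without null Gr-1+ replicate 2, with values between -0.01 and -0.10 without CEBPaCre, CD19Cre or floxed Gr-1-.

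Ccl3 was listed at 133, 4.35, 15.3 and 12.1 FPKM in Gr-1+, against 35.3, 16.6, 49.7, 20.5 and 16.9 FPKM in Gr-1- libraries. Apart from null Gr-1+ replicate 1, every Gr-1+ library lay below every Gr-1- library. Ccl3 averaged 41.2 ± 61.5 FPKM in Gr-1+ (SD, n = 4) and 27.8 ± 14.4 FPKM in Gr-1- (n = 5), a log2 difference of -0.41 ± 0.75 (limma adjusted p = 0.784), which was -1.33 without null Gr-1+ replicate 1 and 0.22 without null Gr-1+ replicate 2. Ccl4 was listed at 39.5, 2.35, 2.68 and 3.11 FPKM in Gr-1+, against 17.2, 7.78, 39.8, 12.2 and 12.8 FPKM in Gr-1- libraries. Here too the other 3 Gr-1+ libraries lay below all Gr-1- libraries, and only null Gr-1+ replicate 1 overlapped them. Ccl4 averaged 11.9 ± 18.4 FPKM in Gr-1+ (SD, n = 4) and 17.9 ± 12.7 FPKM in Gr-1- (n = 5), a log2 difference of -1.28 ± 0.70 (limma adjusted p = 0.277). Without null Gr-1+ replicate 1 it was -2.15 with an adjusted p of 0.0079, where the alternatives spanned 0.0079 to 0.599.

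Cxcl10, an interferon-induced ligand of Cxcr3, was listed at 3.35, 5.09, 15.4 and 1.01 FPKM in Gr-1+, against 1.02, 0.779, 0.839, 0.831 and 2.22 FPKM in Gr-1- libraries. The CEBPaCre Gr-1+ library was highest, and only the CD19Cre Gr-1+ library lay within the Gr-1- range. Cxcl10 averaged 6.22 ± 6.37 FPKM in Gr-1+ (SD, n = 4) and 1.14 ± 0.609 FPKM in Gr-1- (n = 5), a log2 difference of 1.39 ± 0.48 (limma adjusted p = 0.0836). It passed without CD19Cre Gr-1+, at 1.87 with an adjusted p of 0.00979, where the alternatives spanned 0.0052 to 0.174. Among 24 tested interferon response genes, 2 were higher in Gr-1+, Oasl2 (4.13-fold, limma adjusted p = 0.0364) and Oas2 (3.17-fold, adjusted p = 0.0413), both of the oligoadenylate synthetase family, and none was lower. Their summed level was 351, 642.5, 1496 and 786 FPKM in Gr-1+, against 226, 564, 619, 489 and 480.4 FPKM in Gr-1- libraries. The CEBPaCre Gr-1+ library was highest for this list as it was for Cxcl10. The orders differed below it: CD19Cre Gr-1+ had the next highest sum but the lowest Cxcl10 of the Gr-1+ libraries. Cxcl10 overlaps Art3 on the other strand, listed at 0 to 0.552 FPKM in Gr-1+ and at 1.66 to 6.21 FPKM in Gr-1-, the opposite order of the subsets.

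Cxcl16, a membrane-bound ligand of Cxcr6 that ADAM proteases release, hardly varied in Gr-1+. It was listed at 4.77, 3.88, 4.81 and 4.95 FPKM in Gr-1+, against 1.86, 5.47, 3.88, 6.26 and 4.36 FPKM in Gr-1- libraries. The Gr-1+ values lay inside the Gr-1- range, where null was lowest. Cxcl16 averaged 4.60 ± 0.485 FPKM in Gr-1+ (SD, n = 4) and 4.37 ± 1.68 FPKM in Gr-1- (n = 5), a log2 difference of 0.13 ± 0.26 (limma adjusted p = 0.803), which was -0.08 without null Gr-1-. Cxcl16 overlaps Zmynd15, listed at 0.118 to 0.662 FPKM over the 9 libraries.

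Pf4, platelet factor 4 of platelet granules, was listed at 3.42, 9.07, 8.21 and 3.02 FPKM in Gr-1+, against 1.33, 1.67, 2.24, 3.36 and 5.86 FPKM in Gr-1- libraries. Its subsets overlapped, and null Gr-1+ replicate 2 and CEBPaCre Gr-1+ were the 2 highest. Pf4 averaged 5.93 ± 3.15 FPKM in Gr-1+ (SD, n = 4) and 2.89 ± 1.83 FPKM in Gr-1- (n = 5), a log2 difference of 0.83 ± 0.38 (limma adjusted p = 0.186). Platelet genes summed to 13.5, 44.1, 43.1 and 32.0 FPKM in Gr-1+, against 18.5, 40.5, 36.7, 51.2 and 29.6 FPKM in Gr-1- libraries, with 1 of 9 tested genes higher and 1 lower. Within Gr-1+ the order of this sum was that of Pf4 in its 2 highest libraries, while in Gr-1- CD19Cre had the highest sum and floxed the highest Pf4. Ppbp, the other platelet chemokine, held 2.36, 16.1, 13.8 and 8.55 FPKM in Gr-1+ against 0.930, 2.92, 3.19, 9.58 and 4.23 FPKM in Gr-1- libraries and did not pass (adjusted p = 0.219). The part of platelet RNA in Pf4 was not tested.

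Receptors for these ligands included strongly and barely detected ones. Ccr1, the receptor of Ccl3, Ccl5, Ccl6 and Ccl9, was listed at 56.4, 27.1, 12.6 and 41.3 FPKM in Gr-1+, against 1.05, 0.31, 0.45, 1.47 and 0.453 FPKM in Gr-1- libraries (18.3-fold, limma adjusted p = 3.55e-05). Ccr2, the receptor of Ccl2, was listed at 539.6, 465, 485 and 718 FPKM in Gr-1+, against 28.2, 28.6, 49.9, 62.0 and 21.5 FPKM in Gr-1- libraries (15.1-fold, adjusted p = 1.68e-05). Ccr1 and Ccr2 were thus high where Ccl2, Ccl6 and Ccl9 were high and Ccl5 was low, without overlap between subsets. Cxcr2, the receptor of Cxcl2, averaged 6.2 ± 1.53 FPKM in Gr-1+ (n = 4) and 7.80 ± 5.11 FPKM in Gr-1- (n = 5) and did not pass (adjusted p = 0.878). Ccr3, Cxcr3 and Cxcr6 were under the filter, at 1.53 FPKM or less in every library. Of 17 other chemokine receptors, 4 were tested and none passed in either direction.

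Of 31 other chemokine ligand genes, only 3 reached the filter, and none passed in either direction. Their summed level was 12.3 to 21.6 FPKM in Gr-1+ and 7.26 to 14.6 FPKM in Gr-1- libraries, against 833 to 1660 FPKM and 611 to 1055 FPKM for the 10 members. Cxcl1 and Cxcl3, further ligands of Cxcr2, were listed at 4.53 and 4.99 FPKM in null Gr-1+ replicate 1, where Cxcl2 was highest too, and at no more than 0.18 and 1.33 FPKM in the other 8 libraries. Genes that process or bind chemokines went both ways, 5 higher and 1 lower in Gr-1+ of 12 tested. The 5 were Prtn3 and Elane, serine proteases of neutrophil granules, the matrix proteases Mmp8 and Mmp9, and Vcan, a proteoglycan, with folds from 2.66 for Mmp9 to 66.4 for Mmp8. Prtn3, Elane and Mmp9 are also on the neutrophil list above and Vcan on the classical monocyte list, so these calls are not a separate result. Srgn, the granule proteoglycan that carries Pf4 in platelets, was 2.00-fold lower in Gr-1+ (adjusted p = 0.0423). Adam10 and Adam17, which shed Cxcl16, did not pass (adjusted p = 0.389 and 0.645).

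NF-kB genes went lower in Gr-1+, 7 of 22 tested and none higher. Tnip1, a brake on NF-kB, was 2.96-fold lower in Gr-1+ (limma adjusted p = 0.00105), Tnf 3.88-fold (0.00331), Il1b 5.92-fold (0.0037), Nfkbie 1.86-fold (0.00953) and Cd83 7.50-fold (0.0105). Among the ligands known as NF-kB targets, Ccl5 had the same direction, Ccl2 the opposite one, and Ccl3, Ccl4, Cxcl2 and Cxcl10 did not pass.

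The null Gr-1+ pair, the only 2 libraries with the same labels, were far apart in several of these genes. Of the 10 members, 6 were at least 2-fold apart on the FPKM + 1 scale, 4 higher in replicate 1 and 2 higher in replicate 2, where 3.95% of tested genes were that far apart, 2.36% toward replicate 1 and 1.59% toward replicate 2. The median absolute log2 ratio was 1.55 over the members and 0.26 over all tested genes. Cxcl2 was 155-fold higher in replicate 1 and Ccl3 25.1-fold, with 0.259% and 0.45% of tested genes as far apart or farther. Ccl4 was 12.1-fold higher and Ccl2 4.51-fold. The reverse held for Ccl5, 3.76-fold higher in replicate 2, and for Pf4, 2.28-fold higher there, while Ccl6, Ccl9, Cxcl10 and Cxcl16 had log2 ratios between -0.48 and 0.37. With 1 pair of libraries there is no test of this difference.

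**Figure D4:**
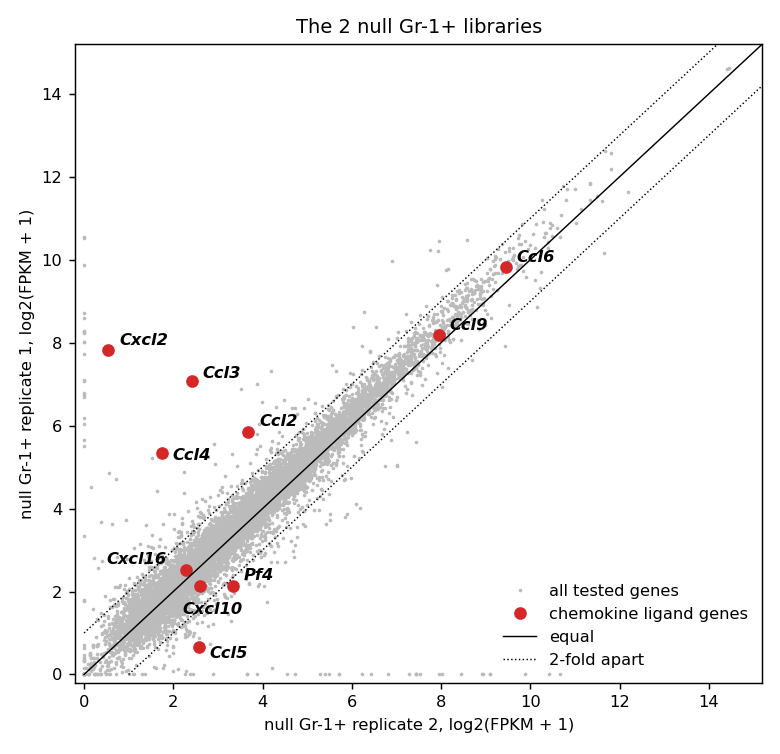
Level of each tested gene in null Gr-1+ replicate 1 (y axis) against replicate 2 (x axis), both as log2(FPKM + 1), with chemokine ligand genes in red, a solid line for equal values and dotted lines 2-fold apart. Cxcl2, Ccl3, Ccl4 and Ccl2 lie above the lines, Ccl5 and Pf4 below, and Ccl6 and Ccl9 near equality.

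Immediate early genes, which respond within minutes to stimulation and to cell handling, moved the same way between these 2 libraries. Of 19 tested, 13 were at least 2-fold higher in null Gr-1+ replicate 1 and none in replicate 2, among them Egr1 at 15.8-fold, Fosb at 13-fold, Jun at 8.76-fold and Fos at 4.78-fold. The mean of the list on the log2(FPKM + 1) scale was 6.29, 4.65, 5.33 and 5.18 in Gr-1+, against 5.45, 5.53, 6.66, 5.34 and 5.27 in Gr-1- libraries. Null Gr-1+ replicate 1 and CD11cCre Gr-1- had the highest means, and the same 2 libraries were the 2 highest for Cxcl2, Ccl3 and Ccl4. In the same pair 3 of 22 NF-kB genes were 2-fold higher in replicate 1 and none in replicate 2, while 9 of 24 interferon response genes and 4 of 9 platelet genes were 2-fold higher in replicate 2 and none in replicate 1. Of 12 neutrophil genes, 7 were 2-fold higher in replicate 1 and none in replicate 2. The part of cell handling, of neutrophils or of the lower estimated depth of replicate 1 in the chemokine levels was not tested.

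**Figure D5:**
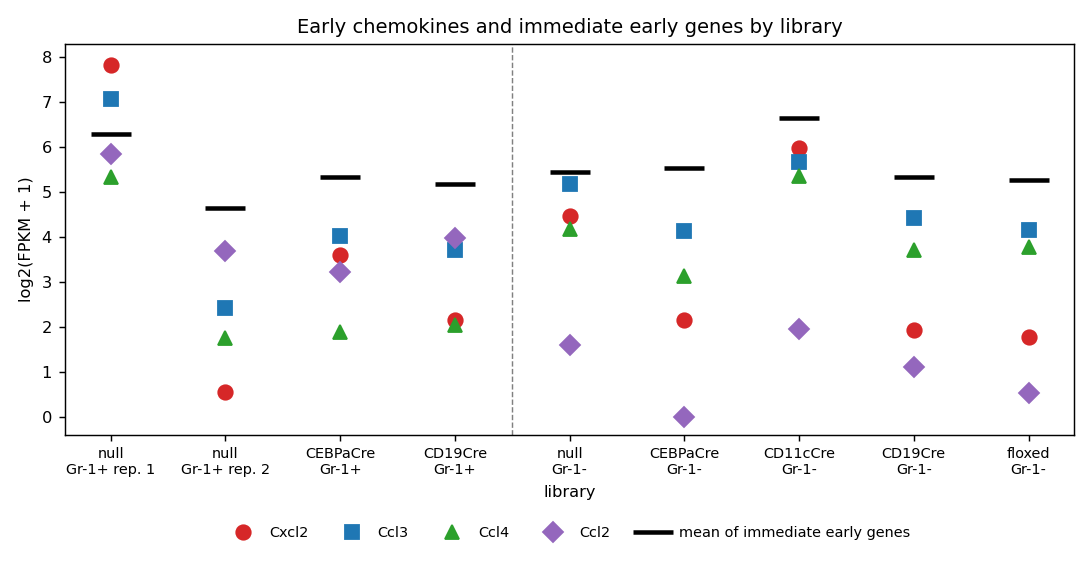
Level of Cxcl2, Ccl3, Ccl4 and Ccl2, with the mean of the immediate early genes as a black bar, on the log2(FPKM + 1) scale (y axis) in each of the 9 libraries (x axis), Gr-1+ left of the dashed line. Cxcl2, Ccl3, Ccl4 and the bar are highest in null Gr-1+ replicate 1 and CD11cCre Gr-1-, while Ccl2 stays low in all Gr-1- libraries.

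By genotype label, libraries whose label removes Fcgr2 in myeloid cells (deleted: null and CEBPaCre, n = 5) were compared with those whose label leaves it there (intact: CD19Cre and floxed, n = 3) at equal subset. No member passed, and limma called 0% of 10429 tested genes, with 1470 at an unadjusted p under 0.05. The member with the lowest adjusted p was Ccl9, at 189 ± 97.3 FPKM in deleted (SD, n = 5) and 74.4 ± 26.5 FPKM in intact libraries (n = 3), a log2 difference of 0.83 ± 0.25 (limma adjusted p = 0.306). In Gr-1+ it held 288, 246 and 241 FPKM in deleted against 105 FPKM in the 1 intact library, and in Gr-1- 101 and 69.2 FPKM in deleted against 57.1 and 61.2 FPKM in intact libraries. The deleted libraries thus lay above the intact ones in both subsets, as for 9.21% of tested genes. Without floxed Gr-1- the intact group is CD19Cre alone, 2551 genes were called, and Ccl9 was one of them (0.94, adjusted p = 0.0268). Without both CD19Cre libraries its log2 difference was 0.45 (adjusted p = 0.602), so its size moved with these libraries, which stood apart above.

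The other 9 members had adjusted p from 0.563 to 0.939 between deleted and intact. Cxcl2 averaged 52.3 ± 97.0 FPKM in deleted (SD, n = 5) and 2.89 ± 0.525 FPKM in intact libraries (n = 3), a log2 difference of 1.62 ± 1.37, with 0.457 FPKM in null Gr-1+ replicate 2 below all 3 intact libraries. Ccl5 averaged 23.5 ± 38.0 FPKM in deleted and 83.2 ± 111 FPKM in intact libraries, a log2 difference of -0.38. The CD11cCre Gr-1- library, in neither group, was the highest Gr-1- library for Cxcl2, Ccl3, Ccl4, Ccl5 and Ccl2. The median log2 difference was 0.23 over the members and -0.03 over all tested genes.

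Within a genotype label, Gr-1+ was set against Gr-1- with 1 library a side and no test. In the null pair with replicate 1, 7 of 10 members were at least 2-fold higher and 1 lower in Gr-1+, against 14.6% of tested genes in either direction; with replicate 2 they were 4 higher and 4 lower, against 12.7%. These comparisons share the null Gr-1- library. CEBPaCre had 4 higher and 2 lower of the 9 members listed above 0 in both libraries, against 13.7% of tested genes. That share leaves out no gene listed at 0. The member left out was Ccl2, listed at 0 in CEBPaCre Gr-1- and 9.28-fold higher in Gr-1+ on the FPKM + 1 scale. CD19Cre had 1 higher and 2 lower of 10, against 15%. Ccl5 was the 1 lower member with null replicate 1, and it was also at least 2-fold lower with null replicate 2, in CEBPaCre and in CD19Cre. Cxcl10 was 3.21 higher on the log2 scale in CEBPaCre Gr-1+ but only 0.13 in CD19Cre Gr-1+. Ccl3 and Cxcl2 had log2 differences of 1.89 and 3.35 with null replicate 1, and of -2.76 and -3.92 with replicate 2.

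Whether the deleted minus intact difference itself differed between the subsets was tested as an interaction. Limma called 0.0863% of 10429 genes and none of the members, and the median over all tested genes was -0.18 as deposited and 0.03 with median-of-ratios size factors. The interaction was largest for Cxcl10, 2.27 ± 0.89, and Pf4, 2.02 ± 0.66 (limma adjusted p = 0.882 for both). Pf4 was higher in all deleted libraries in Gr-1+, 3.42 to 9.07 FPKM against 3.02 FPKM, and lower in Gr-1-, 1.33 and 1.67 FPKM against 3.36 and 5.86 FPKM. Ccl6 also lay higher in the deleted libraries in Gr-1+ and lower in Gr-1-. Its gap in Gr-1- was small, with 459 and 453 FPKM in deleted against 468 and 461 FPKM in intact libraries. The interaction of Ccl6 was 0.26 ± 0.44. Of all tested genes, 2.41% went opposite ways without overlap. The intact Gr-1+ arm was the CD19Cre library alone, which was assumed to vary like the other groups. Over the members the median interaction was 0.61, with all 10 above 0, and every one of these values rests on that library.

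Across the 9 libraries, with each subset's mean taken out, Cxcl2, Ccl3, Ccl4 and Ccl2 varied together. Pearson's r was 0.96 for Cxcl2 with Ccl3, 0.94 for Ccl3 with Ccl4 and 0.93 for Ccl2 with Ccl4, as a description over 9 libraries that share the null Gr-1+ replicate 1 extreme. Among 6645 candidate genes averaging 5 FPKM or more, the pattern most like that of Cxcl2 was Ccl3, then Fosb at 0.96. For Ccl2 the most alike was Trib1 (0.96), and Ccl3 and Ccl4 had each other among their first 3. Ccl6 was most like Fth1 (0.97) and Ccl9 most like Art2a-ps (0.98) and Rbm3 (0.98). Ccl5 was most like Tnfrsf12a (0.94), Cxcl10 most like Pigp (0.91), Cxcl16 most like Rnase6 (0.92) and Pf4 most like Gt(ROSA)26Sor (0.88). The candidates far outnumber the libraries, and nothing is read from these values about shared control.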

How the data were processed

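Each deposited file held 1 library as FPKM per gene symbol, made by the authors and used with no further scaling; the file headers name no unit, which was taken from the values and from Cufflinks in the submitters' processing notes. Per those notes the tools were TopHat2 2.0.8 and Cufflinks 2.1.1 on mm9; the gene annotation and the settings are not given in the sources used here. FPKM splits reads of overlapping genes by model, and a value of 0 can be a failed estimate, so such a gene is described as listed at 0. Every value column was used and 0 were left out. Counts were not used here, so no counting interval is given.

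The model was limma 3.58.1 under R 4.3.3 on log2(FPKM + 1), using lmFit and eBayes with a trend. A gene was tested where it averaged 1 FPKM or more across the 9 libraries and where 2 or more fitted libraries were above 0. All p-values were adjusted by Benjamini-Hochberg over all tested genes, with calls at or under 0.05. The subset fit had no covariate and the deletion fit had the subset; CD11cCre was left out of deletion, since that driver acts in part of the monocytes. The fits were tested on simulated data. Likeness is Pearson's r of deviations from the subset mean over tested genes averaging 5 FPKM or more, without predicted genes and small RNAs, and the 3 highest were taken. Motifs and tables were handled in Python 3.11.15.

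All 10 members are named, as are receptors of the members and, from each of the other gene lists, up to 5 called genes per direction, by p. Cxcl1, Cxcl3, Ppbp, Adam10, Adam17, Ncr1, Egr1, Fosb, Jun and Fos were named after their values were seen. Not every gene picked in this way is reported here. The members and lists were chosen with earlier results of these data known, and the alternatives are in the closing section.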

Additional observations from a re-analysis of the deposited data

Results flagged for a closer look

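In a group of 4 or 5 libraries, 1 library lay far from the others for 7 of the 20 groups tested (10 genes in 2 subsets). This was 5 of 10 members in Gr-1+, where 8.71% of all tested genes had such a library, and 2 of 10 in Gr-1-, where 7.16% had one. The rule is set at about 1 in 20 for normally distributed values, which FPKM need not be. The share over all tested genes is therefore the one to compare with. The 7 are not independent, since 1 library accounts for 4 of them. In Gr-1+ the library labelled null replicate 1 was the high one for 4 genes. It held 225 FPKM of Cxcl2, where the nearest other Gr-1+ library had 11.1 FPKM, and 133 FPKM of Ccl3, where the nearest had 15.3 FPKM. It also held 39.5 FPKM of Ccl4 against 3.11 FPKM and 56.7 FPKM of Ccl2 against 14.8 FPKM in the nearest library. The library labelled null replicate 2 was the low one for Cxcl16, at 3.88 FPKM, where the nearest other Gr-1+ library had 4.77 FPKM, a small difference inside a narrow group. In Gr-1- the null library stood high for Ccl9, at 101 FPKM against 69.2 FPKM in the nearest library, and the floxed library stood high for Cxcl10, at 2.22 FPKM against 1.02 FPKM.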

How the results depend on the processing

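Over 32 values of single members and their alternatives, 370 of 408 kept their direction and side of the threshold, 4 lost the call, 6 gained it, 26 changed direction and 2 moved in size only. Ccl2, Ccl5 and Ccl9 kept their subset call in all 18 alternatives, with adjusted p from 0.00152 to 0.0113 for Ccl2 and from 0.000399 to 0.00614 for Ccl5. With library weights 5 members were higher in Gr-1+, Cxcl10 (1.90, limma adjusted p = 0.0052) and Pf4 (1.21, 0.0151) being added, and leaving out 1 library gave 2 to 4 higher and 1 to 2 lower. Genes called between the subsets numbered 1544, against 2376 with library weights, 2712 with genotype as a replicate block, 965 over the genotypes with both subsets and 1128 to 1578 without 1 library. The block changed no member's call. No paired analysis by replicate number was possible because only null has more than 1 number and the subsets share 1. With median-of-ratios size factors, no called gene of the lists changed sign.

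Between deleted and intact, limma called 0 genes, against 673 with library weights, 5 without both CD19Cre libraries, 3 without both CEBPaCre libraries and 0 to 2551 without 1 library, with 0 to 1 members higher. Interaction calls were 9, against 5 with size factors and 7 to 18 without 1 library; this fit was not possible without CD19Cre Gr-1+. Leaving out 1 library turned the subset log2 difference of Ccl3 (-1.33 to 0.22), Cxcl2 (-1.16 to 1.26) and Cxcl16 (-0.084 to 0.25), and the deleted minus intact difference of Ccl2 (-0.24 to 0.51), Ccl4 (-0.15 to 0.71), Ccl5 (-1.13 to 0.36), Ccl6 (-0.026 to 0.12), Cxcl10 (-0.36 to 1.04) and Pf4 (-1.14 to 0.088). That difference also turned for Ccl2 at a pseudocount of 0.1 (-0.37) and with CD11cCre as intact (-0.14), for Ccl4 with CD11cCre as intact (-0.021), for Ccl5 with library weights (0.24) and with CD11cCre as deleted (0.19), for Pf4 with library weights (0.11), and without both CD19Cre libraries for Ccl4 (-0.12), Ccl6 (-0.016) and Cxcl10 (-0.76). A mean of at least 5 FPKM left no value for Cxcl10, Cxcl16 and Pf4. The cause of these changes was not tested. Depth limits the low genes, and levels near 1 FPKM carry few reads.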
